A study of Mus musculus with 8 samples.

Results

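The Spata (spermatogenesis associated) and Tex (testis expressed) genes of the mouse were followed through 8 gene arrays of sperm and epididymis. They were taken by name: each gene whose platform symbol begins with Spata or Tex and a number, read from probe sets that carry 1 gene, with the probe set of the highest mean standing for the gene. This gave 66 genes, 29 Spata and 37 Tex, of the 19411 genes on the array. The naming rule asks for no level of signal and no difference between groups, but it was set with earlier results of these data known.

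All arrays held RNA of C57/Bl6 mice, with no genetic change named in the labels. The 6 sperm arrays comprised 3 from males on the control diet, 2 from males on the low protein diet and 1 from males under caloric restriction, and the 2 epididymis arrays comprised 1 for the control and 1 for the low protein diet. Control and low protein males stayed on the diet until they were 9 to 12 weeks old and were then housed briefly with females, and no age is given for caloric restriction. Sperm had been released from the punctured caudal epididymis, were over 99.5% pure by microscopy, and were screened by PCR against Actb and Myh11. The labels do not say that replicates came from separate animals, nor whether animals were pooled, so the p-values speak only of the spread among these samples, which may be technical. The caloric restriction group is 1 array, so diet, animal, age and handling cannot be told apart there.

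Values are RMA log2 intensities, so a difference of 1 is a doubling of signal. Array medians lay between 6.08 and 6.17, and differences between groups were taken only within a probe set. Signal was ranked between genes only for the filter on low values and to pick the 6 members of highest control sperm signal. Low protein sperm replicate 2 stood apart, and its correlations over tested genes with the remaining sperm arrays were 0.71 to 0.86. The late spermatid markers (Prm1, Prm2, Tnp1, Tnp2, Odf1, Smcp, Crisp2 and Gapdhs) averaged 10.79 to 11.31 in control sperm and 7.85 in both epididymis arrays, and all 8 rose in sperm. All 6 smooth muscle markers fell in sperm, with a list mean of 7.85 to 8.04 in control sperm against 10.97 and 11.06 in epididymis. Other lists separated the tissues less or not at all. Leukocyte markers averaged 6.74 to 7.58 in control sperm against 7.45 and 6.92 in epididymis, and fibroblast and matrix markers 7.88 to 8.26 against 8.96 and 8.60. Sertoli and Leydig markers averaged 5.50 to 5.67 against 5.53 and 5.56, and spermatogonia and spermatocyte markers 5.38 to 5.48 against 5.26 and 5.31. The epididymal label rested on fewer genes. Of 13 epithelial markers on the array, 6 passed the filter on low values and 4 of these fell in sperm, among them Krt5 (-2.23), Defb42 (-1.97) and Aqp9 (-1.87), whereas the secreted lipocalins Lcn5 (0.17) and Lcn8 (0.45), both below the filter, were not lower in sperm than in epididymis. Over all 13 markers, 7 differences were below 0 and 6 above, with a median of -0.25. Without a filter 6 of the 13 fell and 1 rose, against 22.7% and 15.2% of all genes.

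Spermatogenesis runs from dividing spermatogonia through meiotic spermatocytes to round and then elongating spermatids, which build the acrosome, the tail and the mitochondrial sheath. Transcription stops as protamines replace histones, so the RNA of mature sperm is largely carried over from earlier stages. The Spata and Tex names record where a gene was found and not what it does: the proteins include structural parts of sperm, meiotic factors and housekeeping enzymes. The genes were therefore grouped by known role, with 40 placed in spermatids and sperm, 10 in meiotic and earlier germ cells, 12 known as broadly expressed and 4 given no role (Tex24, Tex28, Tex13c1 and Tex13c3). Spata31, Spata31d1a, Spata31d1c and Spata31d1d, the Tex13 genes, and Tex19.1 with Tex19.2 are families of similar sequence whose probes may share signal, and their single values are uncertain for that reason.

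The promoters of these genes were read from RefSeq on build GRCm38.p6 as windows of 300 bases, from 250 before to 50 after the transcription start. A window was found for 57 of the 66 genes, and a gene with several windows was given the mean of their CpG ratios. Mammalian promoters fall broadly into CpG-rich ones, typical of housekeeping genes, and CpG-poor ones, common among tissue-restricted genes. The ratio of observed to expected CpG had a median of 0.80 over the 11 broadly expressed members with a window, 0.69 over 7 meiotic members and 0.20 over 36 spermatid members, against 0.39 over all 27025 genes with a window. A ratio under 0.4 was found in 26 of the 36 spermatid members (72.2%) and in 0 of the 11 broadly expressed ones, against 50.9% of all genes. Spata3, which lies on the poor side, and Tex261, which lies on the rich side, are shown with each CG in capitals, at chr1:86021695-86021994 (plus strand, 4 CG) and chr6:83775763-83776062 (minus strand, 29 CG).
Spata3: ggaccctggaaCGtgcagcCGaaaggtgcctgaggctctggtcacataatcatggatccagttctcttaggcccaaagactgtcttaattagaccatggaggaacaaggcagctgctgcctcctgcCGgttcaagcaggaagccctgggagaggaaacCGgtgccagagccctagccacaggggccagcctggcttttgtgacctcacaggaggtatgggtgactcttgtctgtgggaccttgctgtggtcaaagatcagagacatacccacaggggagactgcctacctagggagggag
Tex261: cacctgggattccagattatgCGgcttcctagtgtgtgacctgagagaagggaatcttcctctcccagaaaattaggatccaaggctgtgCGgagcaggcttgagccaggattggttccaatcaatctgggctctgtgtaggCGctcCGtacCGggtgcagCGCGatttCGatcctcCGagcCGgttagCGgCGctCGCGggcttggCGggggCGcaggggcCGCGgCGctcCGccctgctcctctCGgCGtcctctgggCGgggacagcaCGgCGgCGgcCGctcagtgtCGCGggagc

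The second set of promoters shows the letters TGACGT, the core of the cAMP response element, to which CREB-family factors bind, among them CREM, the factor known from round spermatids. Both strands were searched, so a match may read ACGTCA, and the full palindrome TGACGTCA holds both. The core occurred in 9 of 57 members (15.8%) and in 8.37% of all genes with a window, and the full element in 1 member (1.75%), Spata7, against 2.03% of all genes. Members with the core were Spata5, Spata6, Spata7, Spata18, Spata32, Spata48, Tex13c1, Tex19.2 and Tex36. A match of letters is a description of the window and not a site of binding. In a gene with several windows, a match in any of them counted. Spata6 has 2 windows, of which only the 1 with the match is printed. Spata18 (chr5:73651130-73651429), Spata6 (chr4:111719760-111720059) and Spata7 (chr12:98627892-98628191), all on the plus strand, are shown because they were among the genes with the largest difference between sperm and epididymis, with the matched letters in capitals.
Spata18: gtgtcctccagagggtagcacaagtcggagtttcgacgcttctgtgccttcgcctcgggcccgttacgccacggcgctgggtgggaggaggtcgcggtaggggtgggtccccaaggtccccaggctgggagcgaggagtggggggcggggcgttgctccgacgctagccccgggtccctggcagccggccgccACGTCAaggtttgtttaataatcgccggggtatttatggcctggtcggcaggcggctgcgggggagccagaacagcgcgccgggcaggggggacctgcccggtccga
Spata6: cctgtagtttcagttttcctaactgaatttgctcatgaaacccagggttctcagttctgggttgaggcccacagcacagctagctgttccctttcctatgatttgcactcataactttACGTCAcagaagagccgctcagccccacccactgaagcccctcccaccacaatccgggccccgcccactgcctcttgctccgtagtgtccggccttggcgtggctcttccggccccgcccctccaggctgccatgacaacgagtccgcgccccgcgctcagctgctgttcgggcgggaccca
Spata7: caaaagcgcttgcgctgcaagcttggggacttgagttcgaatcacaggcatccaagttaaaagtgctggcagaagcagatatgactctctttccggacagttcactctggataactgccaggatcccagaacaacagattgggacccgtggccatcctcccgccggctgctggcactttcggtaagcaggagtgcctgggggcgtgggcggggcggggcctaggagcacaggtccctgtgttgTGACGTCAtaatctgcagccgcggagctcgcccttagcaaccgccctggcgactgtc

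Spata and Tex transcripts were higher in sperm than in epididymis in most of the genes, and the 3 that were lower are all known as broadly expressed. Over all 66 genes, fitted without a filter on low values, 47 rose and 3 fell at an adjusted p under 0.05, against 15.2% of all 19411 genes higher and 22.7% lower. Their median difference was 1.09, against 0.05 over all genes. In the main fit, which left out the lowest 30% of genes by mean, 48 of the 66 genes were tested, of which 39 rose and 3 fell, against 18.4% and 30.1% of the 13587 genes tested. Passing that filter was easier for genes bright in the 6 sperm arrays, so the counts without it carry the comparison. Without low protein replicate 2 the same 42 members were called, and the median of all 66 was 0.92. The fit was limma with tissue and diet as additive terms, in which caloric restriction had a diet term of its own, so that 5 sperm arrays and the 2 of epididymis determined the estimate. Errors are moderated standard errors and p-values are two-sided with Benjamini-Hochberg adjustment over all genes tested. In bulk samples, fewer cells of a type and less RNA per cell cannot be told apart.

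Spata18, a mitochondrial quality control protein also called Mieap, showed the widest gap. Its log2 signal was 11.12, 11.00 and 10.86 in control sperm, 11.56 and 12.13 under low protein and 11.71 under caloric restriction, against 7.18 and 7.49 in epididymis. All 6 sperm arrays lay above both epididymis arrays by more than 3 log2 units. The difference was 4.07 ± 0.20, a 16.8-fold change (limma adjusted p = 1.26e-05).

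Spata4 was near 4 in both epididymis arrays, at 3.99 and 4.01. Sperm gave 7.24, 6.99 and 6.71 for control, 8.01 and 8.10 for low protein and 8.50 for caloric restriction. It rose by 3.49 ± 0.25 (adjusted p = 3.55e-05), and its restricted-diet arrays all lay above the control arrays. Spata3, whose CpG-poor promoter is printed above, read 8.45, 8.23 and 7.84 in control sperm, 9.00 and 9.37 under low protein, 9.02 under caloric restriction, and 5.28 and 5.54 in epididymis. The tissues did not overlap, and the difference was 3.24 ± 0.23 (adjusted p = 3.71e-05). Spata20, which encodes a thioredoxin-like protein, rose by 3.16 ± 0.22 (adjusted p = 3.55e-05), from 5.98 and 5.86 in epididymis to 8.61 to 8.85 in control sperm.

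**Figure D1:**
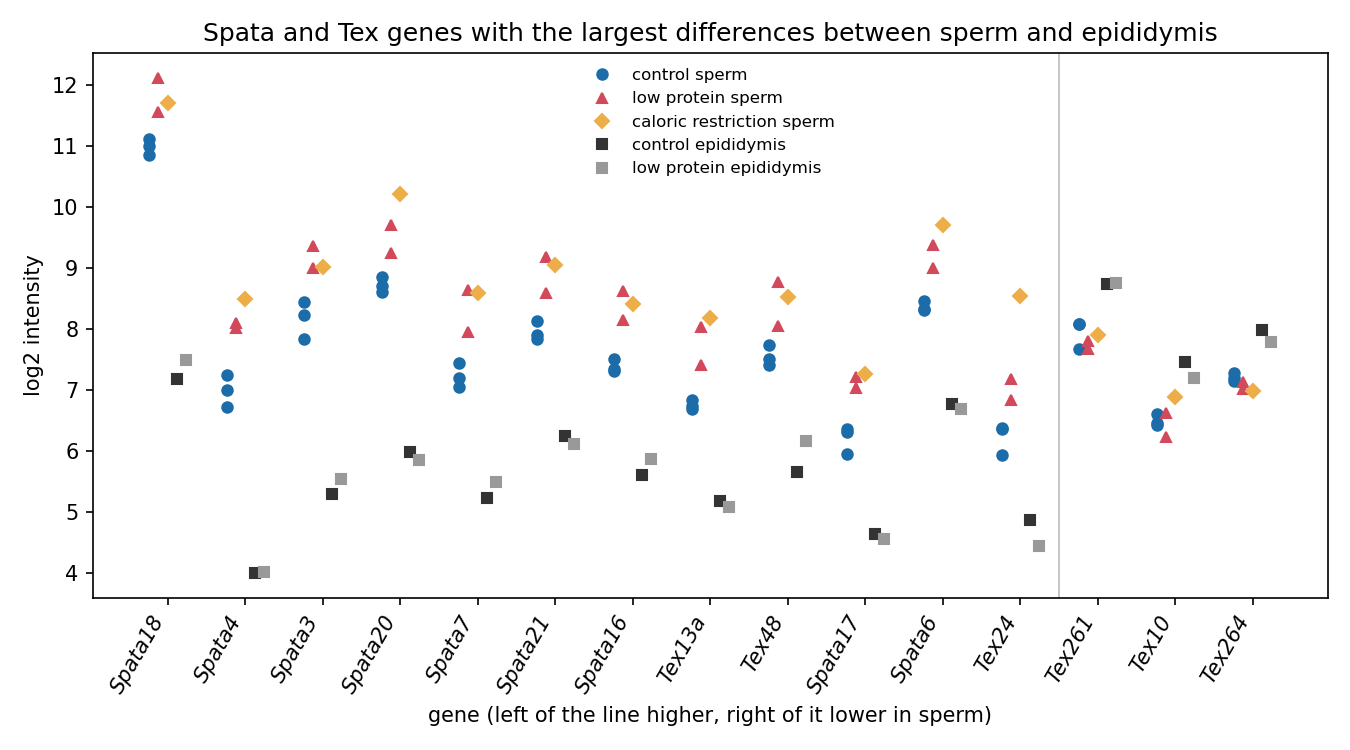
Log2 intensity (vertical axis) of the 12 Spata and Tex genes with the largest rise and the 3 that fell between epididymis and sperm (horizontal axis), with 1 point per array: sperm on the control (3 arrays), low protein (2) and caloric restriction (1) diets, and epididymis (2). For Spata18 the sperm points run from 10.86 to 12.13 and the epididymis points are 7.18 and 7.49, while for Tex261, Tex10 and Tex264 the epididymis points lie above all sperm points.

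Among the spermatid genes, Spata16, needed for the acrosome, rose by 2.13 ± 0.21, and Spata6, needed for the connecting piece between head and tail, by 2.03 ± 0.22. Spata6 read 8.46, 8.33 and 8.31 in control sperm, 9.00 and 9.38 under low protein and 9.71 under caloric restriction, against 6.76 and 6.69 in epididymis. The order of its arrays was therefore epididymis, control, low protein and caloric restriction, with no overlap between the diets. Spata46, which is known for the shape of the sperm head, rose by less, 0.65 ± 0.22. Tex38, which works with a palmitoyltransferase in forming the sperm head, rose by 1.29 ± 0.18.

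Further spermatid genes past the threshold have other known parts in sperm. Spata19, a mitochondrial protein of the midpiece, rose by 1.70 ± 0.31, and Spata33, which ties calcineurin to the mitochondria there, by 1.36 ± 0.19. Spata17, a calmodulin-binding protein, rose by 2.04 ± 0.23 and Spata21, an EF-hand protein, by 2.21 ± 0.26. Tex101, a surface protein of germ cells on which the maturation of ADAM3 depends, rose by 1.06 ± 0.26. Further rises past the threshold ran from Tex48 (2.06 ± 0.22) to Spata31d1a (0.56 ± 0.19), whose tissue values overlapped. Over the 40 spermatid genes, all 40 differences were above 0 (53.5% over all 19411 genes), from 0.38 for Tex47 to 4.07 for Spata18, with a median of 1.35. Without a filter 39 of them rose, and the exception was Tex47 (adjusted p = 0.086).

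The 10 members of meiosis and earlier germ cells had a smaller median difference than the spermatid members, but 7 of them had signal below the filter. Without a filter, 3 of these 10 rose, against 15.2% of all genes, and their median was 0.36, against 0.05. This does not extend to meiotic genes at large: the 14 genes of the synaptonemal complex and recombination list on the array had a median of 1.14. Tex13a rose by 2.08 ± 0.26, with 6.84, 6.74 and 6.69 in control sperm, 7.40 and 8.04 under low protein, 8.18 under caloric restriction, and 5.17 and 5.08 in epididymis. Tex14, which keeps the intercellular bridges of germ cells open, rose by 1.16 ± 0.16, and Tex19.1, which restrains retrotransposons, by 0.49 ± 0.15. The other 7 were below the filter. They comprise Tex12 of the synaptonemal complex (0.34), Tex11 (0.29), Spata22, a partner of MEIOB in recombination (0.38), and Tex15 of meiosis and transposon silencing (0.48), with Tex16, Tex13b and Tex19.2 between 0.06 and 0.28.

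Broadly expressed genes moved both ways, with 3 rises and 3 falls of 12 and a median of -0.08. Of all genes tested, 18.4% rose and 30.1% fell, so these counts were near the background. Spata7, known from the connecting cilium of photoreceptors, rose by 2.39 ± 0.25 (adjusted p = 0.000173). Its signal was 7.44, 7.05 and 7.20 in control sperm, 7.94 and 8.64 under low protein and 8.59 under caloric restriction, against 5.22 and 5.48 in epididymis. It thus lay with the spermatid genes and apart from the rest of its group, where the next rises were Tex2, an ER lipid transport protein (0.60 ± 0.16), and Spata5l1, an AAA ATPase (0.44 ± 0.14).

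Tex261, a protein of export from the ER, fell by 0.91 on the log2 scale (standard error 0.17, adjusted p = 0.00249). Epididymis gave 8.74 and 8.76, and the 6 sperm arrays ran from 7.67 to 8.08. Tex10 fell by 0.87 (SE 0.16) and Tex264, a receptor of ER-phagy, by 0.75 (SE 0.13). Every sperm array lay below both epididymis arrays for these 3 genes and for Spata13, and for 35.6% of all genes tested. Spata2 (-0.09) and Spata2l (0.17), adaptors of the deubiquitinase CYLD, the AAA ATPase Spata5 (-0.07), Spata13 (-0.40), Tex9 (0.19) and Tex30 (-0.25) did not pass the threshold.

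**Figure D2:**
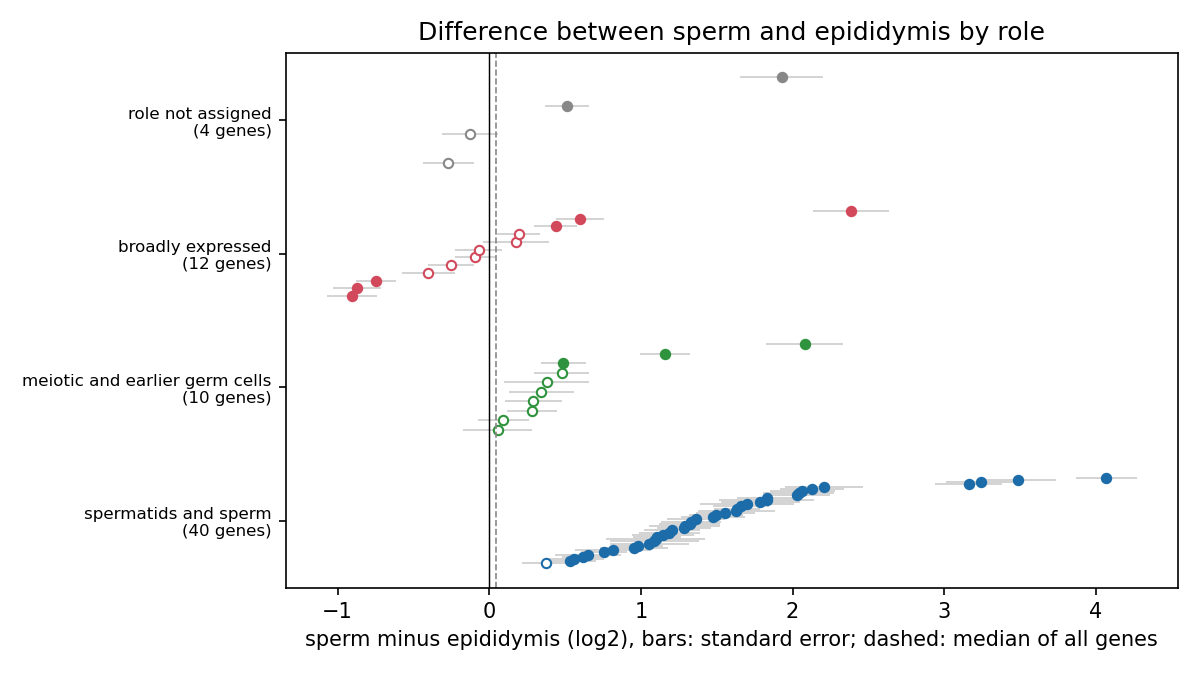
Difference between sperm and epididymis (log2, horizontal axis) for each of the 66 genes, 1 point per gene in 4 rows by role, with standard errors as bars. Filled points passed an adjusted p of 0.05 in the fit without a filter and open points did not, and the dashed line marks the median of all genes, 0.05. The spermatid row lies wholly above 0 and the broadly expressed row lies on both sides.

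Over the 57 genes with a window, the CpG ratio and the tissue difference were weakly related (r = -0.22 across genes, which are not independent replicates). Spata18, with the widest tissue gap, has a CpG-rich window (ratio 0.85), and Spata3 a poor one (0.17). Tex261, which fell, has 0.91.

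**Figure D3:**
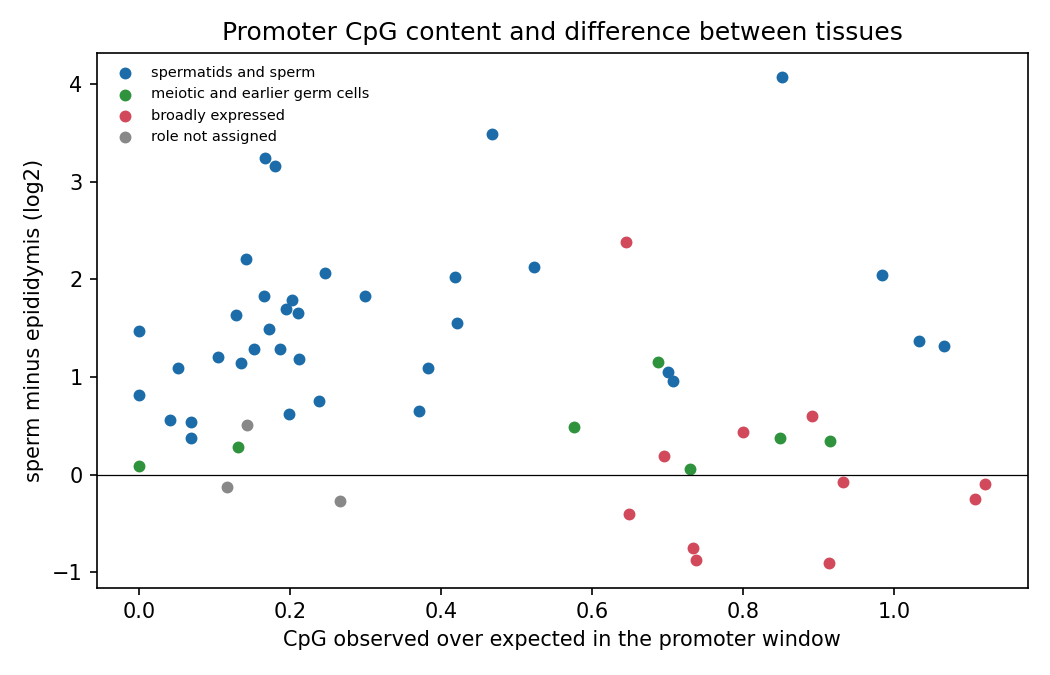
Observed over expected CpG in the promoter window (horizontal axis) and difference between sperm and epididymis (log2, vertical axis) for the 57 genes with a window, coloured by role. Most spermatid genes lie left of 0.4 and all broadly expressed genes right of it, while Spata18 stands highest at 0.85 and 4.07.

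Of the 66 genes, 7 lie on the X chromosome, which is silenced during male meiosis (Tex11, Tex13a, Tex13b, Tex13c1, Tex13c3, Tex16 and Tex28). Without a filter, 2 of the 7 rose in sperm, Tex13a and Tex13c1, and 45 of the 59 others did, against 15.2% of all genes. The X-linked genes had a median difference of 0.09 and ran from -0.27 to 2.08, and the others had a median of 1.15. Of the X-linked genes 1 passed the filter on low values, against 47 of the 59 others. The 7 are meiotic genes or have no role assigned, so chromosome, signal level and role cannot be told apart here. No test was made of this contrast. A second probe set existed for 2 genes. For Spata20 the probe sets differed in size, with 6 sperm minus 2 epididymis means of 3.31 and 0.73, and for Spata48 the values were 1.82 and 0.40.

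Genes that work beside the members were also mostly higher in sperm. In 6 lists of such partners, 52 of 55 genes were on the array, and without a filter 38 of them rose and 2 fell, against 15.2% and 22.7% of all genes. In the main fit 41 were tested, of which 33 rose and 2 fell, against 18.4% and 30.1%, and the counts by list are from that fit. Head-tail coupling, the process of Spata6, had 7 rises of 8, among them Oaz3 (3.70 ± 0.28), Odf1 (2.80 ± 0.17) and Pmfbp1 (2.74 ± 0.23). The mitochondrial sheath list had 4 of 5, with Smcp (2.90 ± 0.19) and Gk2 (2.43 ± 0.19) among them. Acrosome formation had 7 rises and 1 fall of 9, the fall being Gopc (-0.61 ± 0.15), a Golgi protein. Maturation of sperm surface proteins, the process of Tex101, had 9 rises and 1 fall of 11 tested. Without a filter it had 10 rises and 1 fall of 13. Adam5 (2.82 ± 0.23) and Adam2 (2.63 ± 0.16) rose and the sulfotransferase Tpst2 (-0.57 ± 0.16) fell. Synaptonemal complex and recombination genes had 6 rises of 7 tested, with Syce2 (2.90 ± 0.26) and Syce1 (2.47 ± 0.29) leading. Only 7 of the 14 on the array passed the filter, and without it 9 of the 14 rose. The 1 tested bridge gene, Kif23 (0.47 ± 0.19), was not past the threshold, and without a filter 1 of the 3 bridge genes rose.

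Under the restricted diets the Spata and Tex genes lay mostly above control sperm, and the size differed between arrays. Low protein replicate 1 lay above all 3 control arrays for 47 of 66 genes (71.2%, against 22.7% of all genes), low protein replicate 2 for 56 (84.8%, against 47.2%) and caloric restriction for 49 (74.2%, against 25.6%). The median of the 66 differences from the control mean was 0.42, 0.83 and 0.69 on these arrays, against -0.07, 0.12 and -0.10 over all genes. Each of the 3 arrays lay below all controls for 6 of the 66 genes, against 34.8%, 32.7% and 43.4% of all genes. Among the 6 sperm arrays, caloric restriction held the highest value of 29 of the 66 genes (43.9%), against 15.4% of all genes. Low protein replicate 2 also held the highest value of 29, but it did so for 37.2% of all genes, nearer to the members' share. Low protein replicate 1 held the highest value of none, against 3.88% of all genes.

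Other transcripts moved with the same arrays. Late spermatid markers averaged 10.79 to 11.31 in control sperm, 11.58 and 11.97 under low protein and 11.61 under caloric restriction. Smooth muscle markers averaged 7.85 to 8.04, then 7.54 and 7.06, then 7.79, and epididymal epithelium markers 5.77 to 5.91, then 5.65 and 5.59, then 5.51. Spermatogonia and spermatocyte markers averaged 5.38 to 5.48, then 5.63 and 5.80, then 5.66. Fibroblast and matrix markers averaged 7.88 to 8.26, then 7.85 and 7.54, then 8.09, leukocyte markers 6.74 to 7.58, then 7.44 and 7.45, then 7.59, and Sertoli and Leydig markers 5.50 to 5.67, then 5.49 and 5.83, then 5.34. The part of these lists in the diet differences was not tested.

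**Figure D4:**
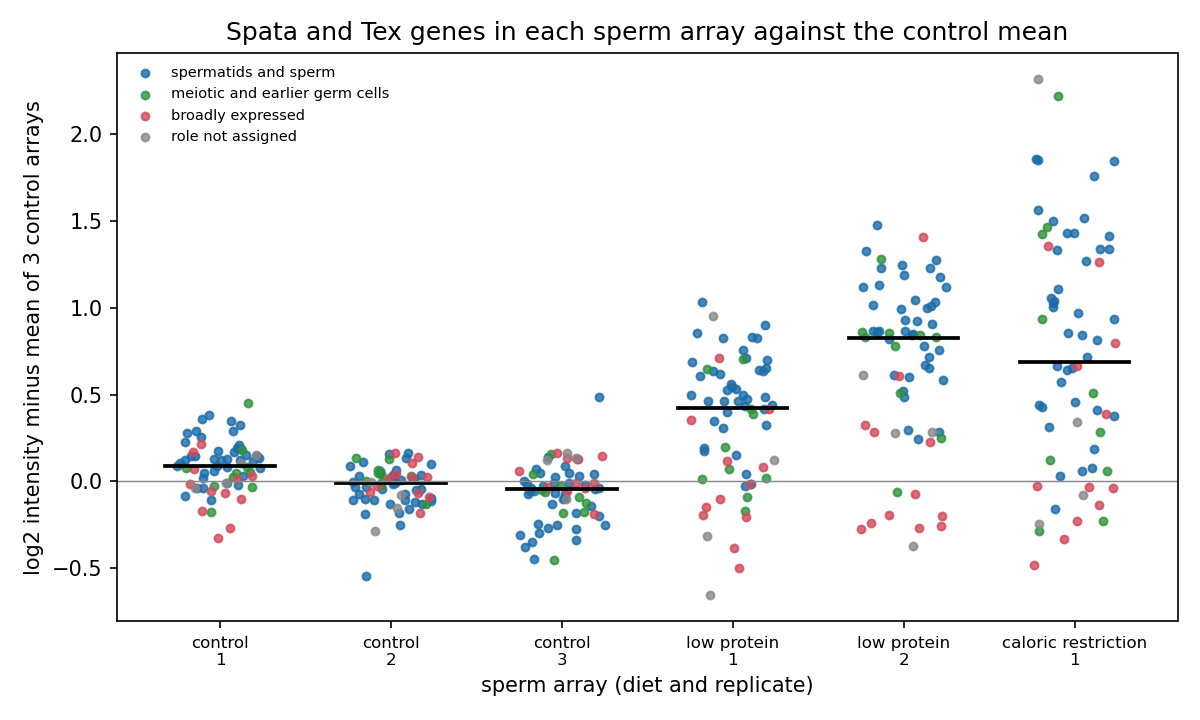
Log2 intensity of each of the 66 genes minus its mean over the 3 control sperm arrays (vertical axis), 1 point per gene on each of the 6 sperm arrays (horizontal axis), coloured by role, with the median as a bar. The medians are 0.42, 0.83 and 0.69 on the low protein and caloric restriction arrays, and caloric restriction has the longest upper tail.

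Low protein sperm showed no member past the threshold against control sperm, in either direction, and 0 of 13587 genes passed in limma (smallest adjusted p = 0.0847). Unadjusted, 32 of the 48 tested members were higher and 0 lower at p under 0.05, against 11.9% and 13.1% of all genes tested. The median over the 66 genes was 0.58, against 0.01 over all genes. Spata4 had the largest difference among the 4 tested members of smallest p, 1.08 ± 0.19 (adjusted p = 0.0847), and both of its low protein values, 8.01 and 8.10, lay above the highest control value, 7.24. Spata16 read 7.35, 7.50 and 7.31 in control sperm and 8.14 and 8.63 under low protein, a difference of 1.00 ± 0.19. Tex29 gave 0.87 ± 0.17 and Tex26 0.82 ± 0.16, again with no overlap.

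Among the tested members, the lower ones of smallest p under low protein were broadly expressed, none past the threshold: Spata5l1 (-0.29 ± 0.16), Spata2 (-0.20 ± 0.15), Tex261 (-0.21 ± 0.19) and Tex264 (-0.14 ± 0.16). Below the filter, Tex13c3, which has no role assigned, was lower by more (-0.51 ± 0.19) and was not called without a filter (adjusted p = 0.183). The sign of Tex261 and Tex264 turned under cyclic loess normalization. All 40 spermatid genes had a difference above 0, as did 51.7% of all genes, with a median of 0.74, and the 12 broadly expressed ones a median of -0.11. Cyclic loess gave 7 members higher of 48, against 1.73% of genes tested. With low protein replicate 1 left out, a contrast of 1 array against 3, the member median was 0.83, against 0.12 over all genes. Without replicate 2, also 1 array against 3, it was 0.42, against -0.07.

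Under caloric restriction 17 of the 48 tested members rose and none fell, against 5.53% of genes tested higher and 0.0368% lower. Over all 66 genes, without a filter, 22 rose and none fell, against 4.59% and 0.0567% of all genes, and the median was 0.69 against -0.10. The spread of this single array was taken to be that of the other diets. The 17 comprised 13 spermatid genes, the broadly expressed Spata7 and Tex2, Tex13a, and Tex24, which has no role assigned. Leaving out either low protein array left the member median at 0.69. The spread then came from the control arrays alone, so both gave the same fit. The count depended on the control arrays: it was 12, 5 and 8 without control replicate 1, 2 and 3, against 3.57%, 2.18% and 2.38% of genes tested. It was 11 after quantile normalization (3.82%) and 10 of 29 with a stricter filter (5.49%).

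Tex24 had the largest difference, 2.32 ± 0.26 (limma adjusted p = 0.00308). It read 6.37, 5.94 and 6.36 in control sperm, 7.18 and 6.83 under low protein and 8.54 under caloric restriction. Tex38 read 6.84, 6.62 and 6.70, then 7.18 and 7.24, then 8.57, a difference of 1.85 ± 0.20 (adjusted p = 0.00308). For both, caloric restriction stood more than 1 log2 unit above every other sperm array.

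Spata19, the midpiece protein, read 6.14, 5.66 and 5.94 in control sperm, 6.60 and 7.19 under low protein and 7.77 under caloric restriction. It rose by 1.86 ± 0.29 (adjusted p = 0.00963), and the 3 diets did not overlap. Spata45 rose by 1.76 ± 0.27 and Tex21 by 1.56 ± 0.28. For Spata45 low protein overlapped with control (6.39 and 6.03 against 5.54 to 6.07), and caloric restriction stood alone at 7.54.

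Spata4 rose by 1.52 ± 0.25, Spata20 by 1.50 ± 0.24 and Spata1 by 1.43 ± 0.22. For Spata20 the second probe set gave a smaller difference between caloric restriction and the control mean, 0.41. The remaining 9 rises were those of Tex26, Tex13a, Spata7, Spata6, Tex33, Tex2, Spata17, Spata24 and Spata33, between 1.43 and 1.00. Tex2 read 7.76, 7.75 and 7.95 in control sperm, 8.24 and 8.43 under low protein and 9.09 under caloric restriction, a rise of 1.27 ± 0.21. Below the filter and called only without it were Tex15 (2.22 ± 0.25), Tex36 (1.85 ± 0.24), Tex11 (1.47 ± 0.21), Tex50 (1.42 ± 0.33) and Spata31 (1.34 ± 0.23). Tex15 and Tex11 act in meiosis, and Tex15 read 4.71, 4.81 and 4.71 in control sperm, 5.13 and 5.60 under low protein and 6.96 under caloric restriction. Tested members lower under caloric restriction, none past the threshold, were led by Spata13 (-0.48 ± 0.25), Spata5l1 (-0.33 ± 0.20), Tex19.1 (-0.29 ± 0.21) and Tex264 (-0.23 ± 0.20).

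**Figure D5:**
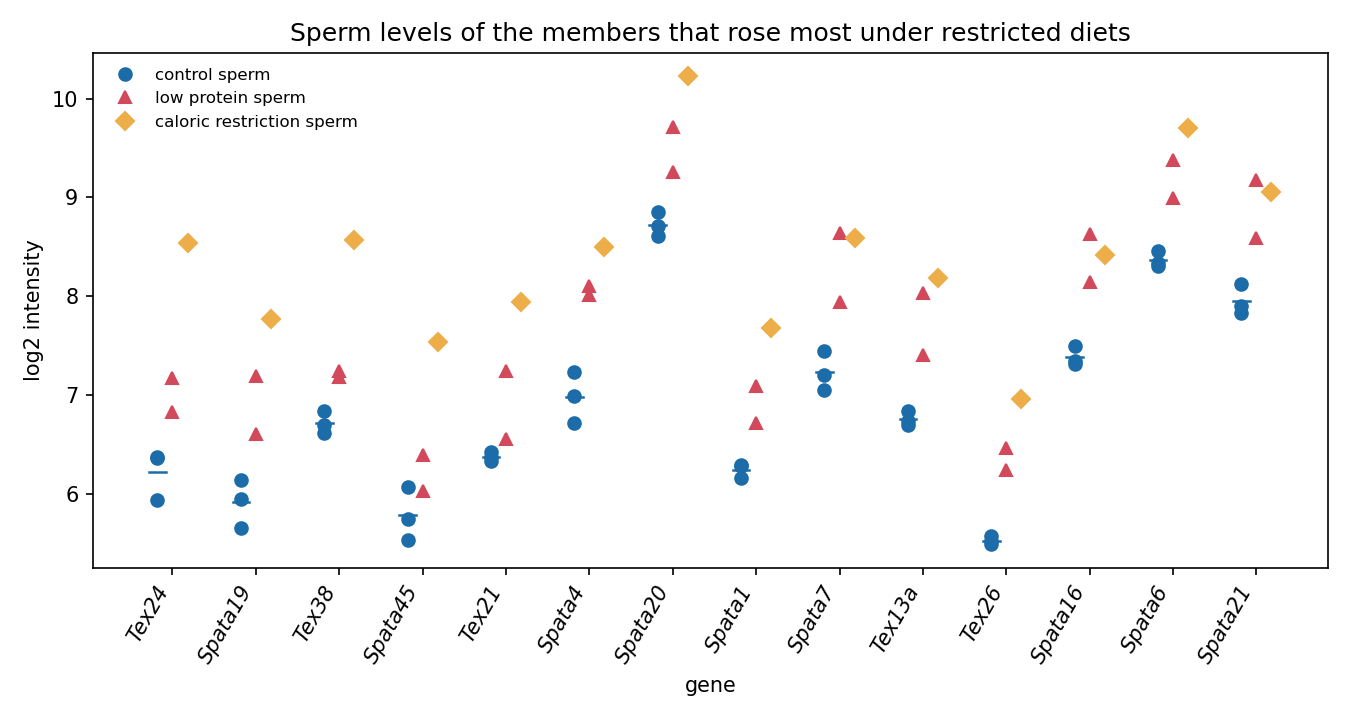
Log2 intensity (vertical axis) in control, low protein and caloric restriction sperm for the members with the largest rises under a restricted diet (horizontal axis), 1 point per array with a bar at the control mean. Tex24, Tex38 and Spata45 reach 8.54, 8.57 and 7.54 under caloric restriction, above all other sperm points, while for Spata16 and Spata21 the caloric restriction point lies between the low protein points.

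With both restricted diets set together against control, 3 arrays against 3, 13 of 48 tested members rose and none fell, against 2.72% of genes tested higher and 0.0294% lower. Without a filter 14 of 66 rose and none fell, against 1.92% and 0.0206% of all genes. The largest of the 13 were Spata19 (1.27 ± 0.28), Spata4 (1.22 ± 0.20), Spata7 (1.16 ± 0.22), Tex13a (1.12 ± 0.21), Tex26 (1.02 ± 0.20), Spata16 (1.01 ± 0.17), Spata6 (1.00 ± 0.20) and Spata21 (0.99 ± 0.19), and the other 5 were Spata17, Spata3, Tex35, Tex29 and Tex44. Spata21 read 8.12, 7.83 and 7.90 in control sperm against 8.59, 9.18 and 9.06 under restriction, with no overlap. The adjusted p-values of the 13 lay just under the threshold, between 0.0411 and 0.05. No member was called without any 1 of the 3 control arrays or without caloric restriction, and in those fits 0 of all 13587 genes passed. The count was 24 without low protein replicate 1, against 7.05% of genes tested, 20 without replicate 2 (4.61%), 7 with a variance trend (1.21%) and 6 of 29 with a stricter filter (2.01%).

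The partner genes were compared in the same way. Without a filter 21 of the 52 rose under caloric restriction, against 4.59% of all genes, and 9 with both diets together, against 1.92%, and none fell. Of the 41 tested in the main fit, 19 rose under caloric restriction and 11 with both diets together, against 5.53% and 2.72% of genes tested. Spaca1 of the acrosome (2.35 ± 0.22), Pdilt, a chaperone of sperm surface proteins (2.29 ± 0.23), and Sun5 of head-tail coupling (2.17 ± 0.22) had the largest rises under caloric restriction. With both diets together Tbc1d21 of the mitochondrial sheath rose by 1.35 ± 0.21, Syce1 by 1.19 ± 0.20, Adam2 by 1.16 ± 0.21 and Pmfbp1 by 1.07 ± 0.21. The diet comparisons share the 3 control arrays, so they are not independent of each other.

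Low protein and caloric restriction sperm did not differ past the threshold for any member, nor for any of the 13587 genes (smallest member adjusted p = 0.0676 in limma). At an unadjusted p under 0.05, 11 of 48 members were lower under low protein and 1 higher, against 7.37% and 2.31% of genes tested. Among tested members the largest were Tex24 (-1.54 ± 0.27), Tex38 (-1.36 ± 0.21), Spata45 (-1.33 ± 0.29) and Tex21 (-1.04 ± 0.29), while below the filter Tex15 (-1.60 ± 0.26) and Tex36 (-1.22 ± 0.26) lay in the same range. Tex45 (0.91 ± 0.32), Spata32 (0.61 ± 0.30), Spata31d1d (0.42) and Spata13 (0.31) were higher under low protein. Without low protein replicate 2, a contrast of 1 array against 1, the member median was -0.30, against 0.02 over all genes. Without replicate 1, also 1 array against 1, it was 0.018, against 0.10. In both fits the spread came from the control arrays alone.

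In epididymis, with 1 array per diet, the difference between diets has no replicate check and was not tested. The members' median difference, low protein minus control, was 0.05, and 4 of 66 exceeded 0.5 in size, against 2.88% of all genes. Tex101 (-0.78), Tex37 (-0.67), Tex24 (-0.43) and Spata19 (-0.40) were lowest, and Tex21 (0.68), Tex14 (0.53), Tex48 (0.50) and Spata48 (0.49) highest. Tex101 read 5.40 for control and 4.61 for low protein.

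The diet effect of low protein in sperm minus that in epididymis was tested directly. No member and no other gene passed (smallest adjusted p = 0.875 in limma), and at an unadjusted p under 0.05, 13 of 48 members were higher and 0 lower, against 4.06% and 0.434% of genes tested. The smallest p belonged to Tex26, with a difference of 1.04 ± 0.30. The sperm and epididymis responses of the members are therefore not shown to differ.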

How the data were processed

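RNA of 8 mouse samples was measured on Affymetrix gene arrays. The deposited values are log2 intensities made by the authors with RMA, per the submitters' processing notes; the log2 scale was read from the values (1.17 to 14.53), and neither version nor annotation is given in the sources used here. RMA usually equalizes distributions between arrays, so a change in total RNA is not visible. Of 33660 probe sets, 21222 carried 1 gene by the platform annotation, 1541 several, and 10897 were unnamed here. The probe set of highest mean stood for each of 19411 genes. The lowest 30% by mean (log2 5.69 and below) were left out of the main fit, leaving 13587 genes and 48 of 66 members.

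Tests used limma 3.58.1 in R 4.3.3 (lmFit, eBayes, two-sided, Benjamini-Hochberg over all genes tested, threshold 0.05). Sperm diets were compared over 6 arrays, each diet with its own mean, tissues over 8 arrays with tissue and diet terms, and the difference in diet effect over 8 arrays with a mean per group. Each fit was tested on simulated data. No 2 arrays were identical, and the number of arrays limits the precision. Named in the text were up to 12 rises and falls between tissues, up to 8 per sperm diet comparison, or the 4 of smallest p where none passed, the 4 largest each way in epididymis, members not higher in sperm, and the 6 of highest control sperm signal; other named members and arrays were chosen after values were seen. The members and lists were chosen with earlier results of these data known. Alternatives were other normalizations, filters, thresholds, eBayes settings, averaging probe sets of a gene and leaving out each array. Promoter windows are RefSeq's, matched by gene.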

Additional observations from a re-analysis of the deposited data

How the results depend on the processing

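Directions were checked for the tested members picked by the naming rule, in the fitted comparisons where they were picked. They held under every alternative tried except for Tex261 (0.073) and Tex264 (0.0018), which turned under cyclic loess for low protein against control sperm. Other named members, those below the filter and the epididymis differences of single members were not checked in this way. Few arrays limit all diet results. The count for both diets together depended on each control array and on caloric restriction, for members as for all genes tested. Quantile normalization moved the member medians to 0.69 (low protein against control), 0.72 (both diets), -0.066 (low protein against caloric restriction) and 0.50 (sperm minus epididymis diet effect). The caloric restriction count was then 11, against 3.82% of genes tested. Cyclic loess gave medians of 0.83 (caloric restriction), 0.71 (both diets) and -0.26 (low protein against caloric restriction). It gave 7 low protein calls, against 1.73% of genes tested, and 2 members lower under low protein than caloric restriction, against 0.979%. Median centring gave 1.04 between tissues and 0.73 for caloric restriction. Calls higher made up 37.9% of all genes called between tissues, 47.1% after quantile normalization and 50.8% after cyclic loess. Keeping only the upper 50% of genes left fewer members tested, 29. Of these, 24 rose between tissues, 10 under caloric restriction and 6 for both diets, against 18.6%, 5.49% and 2.01% of genes tested. The epididymis median was 0.18. A variance trend gave 7 for both diets, against 1.21% of genes tested. A threshold of 0.10 gave 16 rises for low protein, against 4.11% of genes tested, and 24 for both diets, against 6.7%. It also gave 2 members lower under low protein than caloric restriction, against 0.942%. The cause of these changes was not tested.

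Leaving out 1 array at a time, between-tissue medians ran from 0.79 (without epididymis low protein, 30 rises) to 1.38. For low protein the medians ran from 0.42 to 0.83 and the count from 0 to 34. For caloric restriction they ran from 0.64 to 0.76, with counts from 5 to 29. For both diets they ran from 0.57 to 0.80, with counts from 0 to 24. For low protein against caloric restriction the medians ran from -0.30 to 0.018, with 0 to 7 members lower and 0 to 1 higher. No paired analysis was possible because the labels give each array its own letter and no replicate number shared between groups.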
